A study of Mus musculus with 46 samples.

Results

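The regulatory T-cell genes are 9 of the 19521 genes in the deposited read-count table: Foxp3, Ikzf2, Ctla4, Tnfrsf4, Tnfrsf18, Tnfrsf9, Gpr83, Lrrc32 and Ecm1. They were taken by gene symbol, whatever their level, and all 9 passed the filter on low counts in every comparison. Levels are given as CPM, read counts scaled to a common library size, and as the authors' FPKM, which is also divided by gene length, where 1 gene is set against another. A change is a log2 fold change with its standard error (SE), and a gene passed the test at an adjusted p under 0.05.

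The RNA came from sorted T cells of C57BL/6 mice, labelled either as hCD2-LMO2 knock-in (here TG; the series title speaks of transgenic mice that over-express LMO2) or as wild type (WT). In the TG mice, LMO2, a bridging protein of blood stem-cell transcription factor complexes that is oncogenic in T cells, is driven by control elements of the human CD2 gene, which are active across the T lineage. The TG groups were the thymic stages DN1, DN3, total DN, DP, CD4SP and CD8SP, and splenic CD4+ and CD8+ T cells. WT cells were sorted for the same thymic stages and not for spleen. DN cells carry neither CD4 nor CD8, DN1 and DN3 are their early and later subsets, DP cells carry both, and CD4SP and CD8SP cells carry 1 of them. Each group had 3 libraries, except WT DN1 with 1, so that 40 libraries fell into 14 groups. Age, sex and the number of animals were not given in the sources used here, and the labels do not say that replicates were separate mice, so p-values measure the spread between these libraries.

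Regulatory T cells are CD4+ T cells that restrain immune responses, and most arise in the thymus from CD4SP cells that meet self antigen. Foxp3 is their lineage-defining transcription factor. Ctla4 and several receptors of the tumour necrosis factor family are among the surface proteins they carry at high level, although activated conventional T cells carry most of these as well. In sorted bulk cells, fewer cells of a type and less RNA per cell cannot be told apart.

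Library totals lay between 17211426 and 28842773 counts. Lmo2 was higher in TG at DN3, DN, CD4SP and CD8SP, by 6.47 ± 0.24, 2.29 ± 0.26, 4.92 ± 0.55 and 6.68 ± 0.54 on the log2 scale (SE, 3 libraries per genotype). In DP, 2 TG libraries held 78.8 and 70.0 CPM of Lmo2, but the library labelled TG DP replicate 3 held 0.395 CPM, within the WT DP range of 0.119 to 0.472 CPM. That library goes against its label, and the changes of the 9 genes in DP are given with and without it. Among TG CD4SP libraries, replicate 1 held 190 CPM of Cd4, and replicate 2 held 3093 CPM of Cd8a and 6487 CPM of Rag1, a gene of receptor rearrangement. The WT CD4SP libraries held at least 1379 CPM of Cd4 and at most 148 CPM of Cd8a and 297 CPM of Rag1.

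Sequence of the start-site windows is shown for the genes on which most of the results below turn: Foxp3, Ctla4, and the neighbouring pair Tnfrsf4 and Tnfrsf18. RefSeq windows of 300 bases (250 before to 50 after the start; build GRCm38.p6) matched 7 of the 9 genes, with 2 starts each for Foxp3 and Tnfrsf9. Ikzf2 and Lrrc32 are named only. Of the 2 Foxp3 windows the one at the first start is shown. The Foxp3 window at chrX:7579426-7579725, the Ctla4 window at chr1:60908775-60909074, and the windows of Tnfrsf4 at chr4:156013445-156013744 and Tnfrsf18 at chr4:156026072-156026371 all lie on the plus strand. Tnfrsf4 and Tnfrsf18 are adjacent, with 0 coding genes between them in the RefSeq table. Capitals mark E-boxes (CANNTG, which reads alike on both strands) and GATA (or TATC, the same motif on the other strand), the motifs of the DNA-binding partners of LMO2 complexes.
Foxp3: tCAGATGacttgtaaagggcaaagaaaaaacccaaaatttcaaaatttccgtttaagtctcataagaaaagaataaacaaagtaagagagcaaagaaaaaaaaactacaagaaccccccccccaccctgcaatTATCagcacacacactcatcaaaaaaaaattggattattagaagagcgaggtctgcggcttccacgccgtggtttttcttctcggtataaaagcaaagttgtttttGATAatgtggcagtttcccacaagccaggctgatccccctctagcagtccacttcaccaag
Ctla4: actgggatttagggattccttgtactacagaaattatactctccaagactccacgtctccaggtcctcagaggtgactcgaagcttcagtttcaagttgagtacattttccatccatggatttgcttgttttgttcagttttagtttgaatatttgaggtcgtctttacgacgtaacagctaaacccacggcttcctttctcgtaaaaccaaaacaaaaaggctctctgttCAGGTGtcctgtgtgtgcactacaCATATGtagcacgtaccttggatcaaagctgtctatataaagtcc
Tnfrsf4: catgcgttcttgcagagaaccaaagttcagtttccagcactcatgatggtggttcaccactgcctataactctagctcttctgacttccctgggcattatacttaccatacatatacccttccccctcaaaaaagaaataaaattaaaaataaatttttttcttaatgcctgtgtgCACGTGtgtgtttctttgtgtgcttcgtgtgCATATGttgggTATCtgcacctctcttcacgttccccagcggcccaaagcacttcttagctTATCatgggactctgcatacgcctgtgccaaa
Tnfrsf18: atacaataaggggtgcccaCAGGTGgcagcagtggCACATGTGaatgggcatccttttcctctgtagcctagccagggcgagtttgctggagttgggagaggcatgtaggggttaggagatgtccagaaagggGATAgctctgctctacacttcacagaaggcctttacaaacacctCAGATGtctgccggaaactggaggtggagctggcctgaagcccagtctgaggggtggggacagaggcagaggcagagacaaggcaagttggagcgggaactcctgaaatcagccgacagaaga

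The Foxp3 window shown held 1 E-box and 2 GATA motifs, and the one at its other start (chrX:7580233-7580532, plus strand) held 3 and 2. The Ctla4 window held 2 and 0, the Tnfrsf4 window 2 and 2, and the Tnfrsf18 window 4 and 1, counting overlapping matches. Both motifs are frequent: of all 32851 windows in the table, 72.3% held an E-box and 57.9% held GATA. The joint motif of CAGNTG followed by GATA after 6 to 12 bases, on either strand, was in 1.15% of all windows and in 0 of the 9 windows of these genes. A match describes letters and is not a site.

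The first question was where in the wild-type thymus the 9 genes are expressed. In WT CD4SP over WT DP cells, 8 of the 9 passed the quasi-likelihood test of edgeR (p-values adjusted by Benjamini-Hochberg), all higher in CD4SP, against 43.9% of all genes tested. Against WT CD8SP cells 8 of the 9 passed too, again all higher in CD4SP, where 44.7% of all genes passed. Ikzf2 was the exception in both. The list's median change was 4.48 over DP and 2.17 over CD8SP, beside -0.01 and 0.00 for all genes tested.

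Foxp3 had 57.0, 49.8 and 36.4 CPM in the WT CD4SP libraries, against 0.331, 0.635 and 0.316 CPM in the WT DP libraries and 3.11, 5.17 and 1.45 CPM in the WT CD8SP libraries. Every WT CD4SP library stood above every WT DP and WT CD8SP library, and below the 1 WT DN1 library, which held 70.6 CPM. The change was 6.79 ± 0.31 over DP (adjusted p = 1.28e-05) and 3.87 ± 0.40 over CD8SP (adjusted p = 0.000285). Gpr83, a G-protein-coupled receptor that is enriched in regulatory T cells, changed nearly as much over DP, by 6.53 ± 0.27 (adjusted p = 1.18e-05), and by 2.39 ± 0.23 over CD8SP (adjusted p = 0.000167).

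The 3 tumour necrosis factor receptors are OX40 (Tnfrsf4), GITR (Tnfrsf18) and 4-1BB (Tnfrsf9), all of which pass costimulatory signals. They separated the stages to different degrees. Tnfrsf4 had 65.8, 58.7 and 49.3 CPM in WT CD4SP libraries, against 2.10, 3.74 and 3.12 CPM in WT CD8SP libraries, a change of 4.27 ± 0.22 (adjusted p = 1.5e-05). Tnfrsf9 was closer between these stages, with 59.3, 59.2 and 49.7 CPM in CD4SP and 31.3, 27.6 and 16.6 CPM in CD8SP (1.16 ± 0.22, adjusted p = 0.00385). Tnfrsf18 had the smallest change of the 8 over DP, 1.73 ± 0.17 (adjusted p = 0.000238), since WT DP libraries already held 16.3 to 19.4 CPM.

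Ctla4, the inhibitory receptor that competes with CD28 for its ligands, changed by 3.85 ± 0.45 over DP and 2.17 ± 0.28 over CD8SP in the same WT libraries. Lrrc32 encodes GARP, which holds latent TGF-beta on the surface of activated regulatory T cells; it changed by 4.83 ± 0.33 and 3.94 ± 0.37. Ecm1, a secreted matrix protein, changed by 3.55 ± 0.14 and 2.09 ± 0.16. Ikzf2 encodes Helios, an Ikaros-family factor found in most thymic regulatory T cells. It had 147, 134 and 98 CPM in CD4SP, 72.3, 128 and 134 CPM in DP, and 165, 160 and 149 CPM in CD8SP. The CD4SP and DP ranges overlapped (0.20 ± 0.26, adjusted p = 0.557), and the CD4SP libraries lay just below the CD8SP ones (-0.32 ± 0.16, adjusted p = 0.139).

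Per unit length, Tnfrsf18 and Tnfrsf4 were the most abundant of the 9 in WT CD4SP cells, with means of 67.3 and 57.3 FPKM. Ecm1, Tnfrsf9 and Gpr83 followed with 37.0, 29.4 and 26.2 FPKM. Ikzf2, Ctla4 and Foxp3 were near each other at 14.1, 13.6 and 13.5 FPKM, and Lrrc32 was the lowest at 3.43 FPKM. In TG splenic CD4 cells Tnfrsf18 and Tnfrsf4 led again, with 79.7 and 70.0 FPKM, and Foxp3 came next with 66.7 FPKM.

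**Figure D1:**
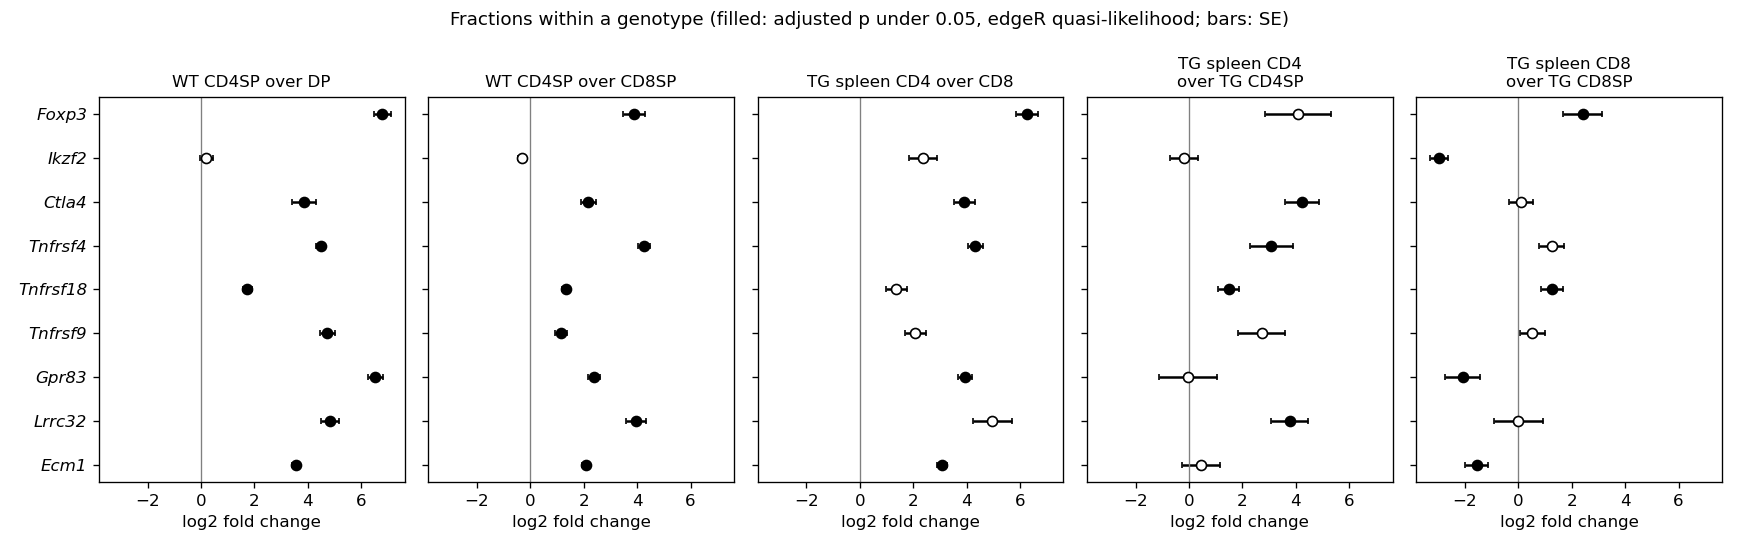
Log2 fold change with SE (x axis) of the 9 genes (y axis) in 5 comparisons of fractions within 1 genotype, 3 libraries per fraction; filled points passed the test at an adjusted p under 0.05. In the WT panels 8 genes lie to the right of 0 and Ikzf2 lies near it; in spleen CD4 over CD8 all 9 lie to the right, 5 of them past the test.

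Across all 14 groups, Foxp3 was highest in TG splenic CD4 cells, with 271.6, 305.6 and 212.4 CPM. WT DN1 followed with 70.6 CPM in its 1 library, then WT CD4SP, and then TG DN1 with 32.6, 52.4 and 33.6 CPM. The WT CD4SP range overlapped that of TG DN1, and from there down each group's range overlapped that of the next. The lowest means were 0.427 CPM in WT DP and 0.413 CPM in TG DN.

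DN1 cells of both genotypes also held RNA of several of the genes. Tnfrsf4 had 15.9, 35.5 and 32.1 CPM in TG DN1 and 46.6 CPM in WT DN1, and Lrrc32 had 11.9, 18.5 and 13.8 CPM in TG DN1 and 19.4 CPM in WT DN1. The same libraries held Cd4 at 423 to 688 CPM in TG DN1 and 548 CPM in WT DN1, although the label is of cells without it. They also held marker RNA of other cells: summed over 8 B-cell markers 749 to 1139 CPM in TG DN1 and 1765 CPM in WT DN1, and over 10 myeloid and dendritic markers 704 to 1050 CPM in TG DN1 and 789 CPM in WT DN1. Summed over 10 NK, innate lymphoid and gamma-delta markers the levels were 959 to 1178 CPM in TG DN1 and 740 CPM in WT DN1. The part of these cells in the DN1 values was not tested.

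**Figure D2:**
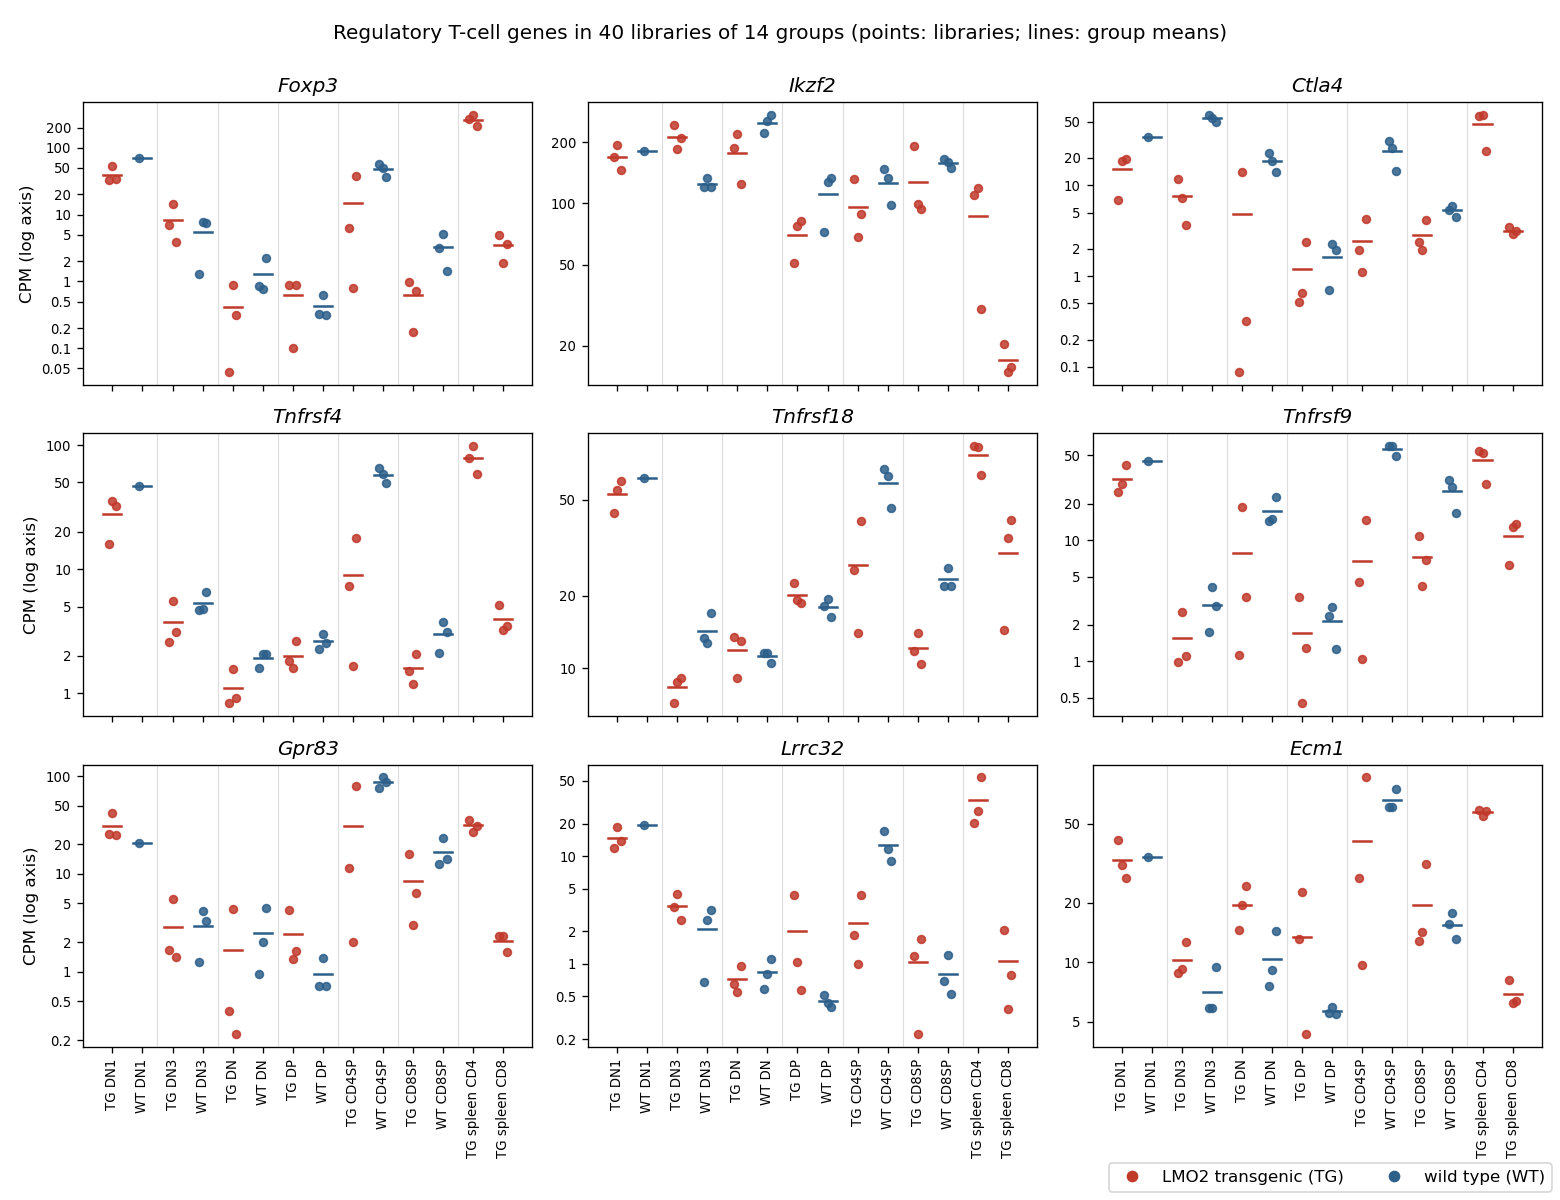
Level of each of the 9 genes in CPM on a log axis (y) by group (x, thymic stages in order with TG left of WT, then TG spleen); points are libraries and lines are group means. Foxp3 stands highest in TG spleen CD4 at 212.4 to 305.6 CPM, and Ikzf2 follows none of the others.

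The members' group means can be set beside that of Foxp3 as a description, since the 14 means share libraries and depth with each other and 12 of them come in TG and WT pairs of 1 stage. Over these means of log2(CPM + 0.5), Pearson's r with Foxp3 was 0.967 for Tnfrsf4, 0.960 for Lrrc32, 0.832 for Tnfrsf18, 0.807 for Gpr83, 0.753 for Ecm1, 0.738 for Ctla4 and 0.712 for Tnfrsf9. It was 0.0187 for Ikzf2. Ranked by r among genes with a mean of at least 1 CPM, Tnfrsf4 and Lrrc32 came at 1 and 2. Tnfrsf18 came at 60, Gpr83 at 110, Ecm1 at 290, Ctla4 at 368, Tnfrsf9 at 531 and Ikzf2 at 5817. The genes with a mean of at least 1 CPM numbered 11928, the 9 members included. Of these, the 10 most like Foxp3 with the members left out were Penk (0.944), Tmem241 (0.933), Ncmap (0.932), Map6 (0.906), Nrn1 (0.901), Rln3 (0.895), Mpp2 (0.885), She (0.884), Acer2 (0.882) and Sp6 (0.881). Penk, which encodes the precursor of enkephalin peptides, had 54.7, 61.8 and 11.4 CPM in TG splenic CD4 cells. It had 7.91, 3.90 and 4.34 CPM in WT CD4SP cells and at most 0.0397 CPM in WT DP cells.

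The genotype comparisons asked, at each stage, which of the genes differ between TG and WT cells. In CD4SP, 4 of the 9 genes passed the test, all lower in TG: Ctla4, Tnfrsf4, Tnfrsf9 and Lrrc32. Of all genes tested there 25.9% passed, in both directions together. All 9 estimates were below 0, with a median of -1.60 beside 0.05 for all genes. Foxp3 itself did not pass.

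Foxp3 had 6.35, 0.785 and 38.2 CPM in TG CD4SP libraries, against 57.0, 49.8 and 36.4 CPM in WT CD4SP libraries. TG replicate 3 lay within the WT range, and replicate 2 was at the level of DP cells. The change was -1.60 ± 1.10 (adjusted p = 0.306). Ctla4 was low in every TG library, with 1.96, 1.12 and 4.27 CPM, against 30.9, 25.7 and 14.3 CPM in WT libraries. The groups did not overlap, and the change was -3.24 ± 0.58 (adjusted p = 0.0128), the largest of the 9.

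Tnfrsf4 had 7.35, 1.65 and 18.0 CPM in TG CD4SP libraries, against 65.8, 58.7 and 49.3 CPM in WT, a change of -2.65 ± 0.75 (adjusted p = 0.0421). Tnfrsf9 had 4.52, 1.05 and 14.5 CPM in TG, against 59.3, 59.2 and 49.7 CPM in WT (-3.02 ± 0.83, adjusted p = 0.038). Lrrc32 had 1.87, 1.01 and 4.39 CPM in TG, against 17.2, 11.8 and 9.06 CPM in WT (-2.35 ± 0.60, adjusted p = 0.0309). In all 3 genes replicate 3 was the highest TG library and replicate 2 the lowest, and neither reached a WT library. Tnfrsf18 did not overlap between genotypes either, with 25.5, 14 and 40.6 CPM in TG and 67.3, 62.7 and 46.3 CPM in WT, but missed the threshold (-1.10 ± 0.40, adjusted p = 0.0779).

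Gpr83 had 11.6, 2.02 and 79.4 CPM in TG, against 75.3, 97.2 and 87.8 CPM in WT, and Ecm1 had 26.7, 9.72 and 85.8 CPM in TG, against 61.0, 61.0 and 75.3 CPM in WT. In both genes TG replicate 3 was at or above the lowest WT library while the other TG libraries were below all of them, and neither change passed (-1.42 ± 1.08 for Gpr83, -0.64 ± 0.70 for Ecm1). Ikzf2 overlapped, with 132, 68.3 and 88.8 CPM in TG and 147, 134 and 98 CPM in WT (-0.37 ± 0.28, adjusted p = 0.352).

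Markers of the sorted fraction differed between the same CD4SP libraries. Zbtb7b, the factor that fixes the CD4 helper fate, had 32.0, 2.92 and 172 CPM in TG libraries 1 to 3, against 529, 532 and 542 CPM in WT, so the TG libraries had the same order for Zbtb7b as for Foxp3. Cd8a had 92.1, 3093 and 804 CPM in TG and 46.8, 43.5 and 148 CPM in WT. Rag1 had 183, 6487 and 2216 CPM in TG and 62.6, 48.8 and 297 CPM in WT, and among TG libraries both genes were lowest in replicate 1 and highest in replicate 2. Mast-cell markers summed to between 11.4 and 2007 CPM in TG and to at most 7.53 CPM in WT, and B-cell markers to between 23.0 and 75.5 CPM in TG and at most 6.30 CPM in WT. Of the 6 mast-cell markers, 3 had 0 counts in each TG library and 2 in each WT library. The part of these differences in the levels of the 9 genes was not tested.

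**Figure D3:**
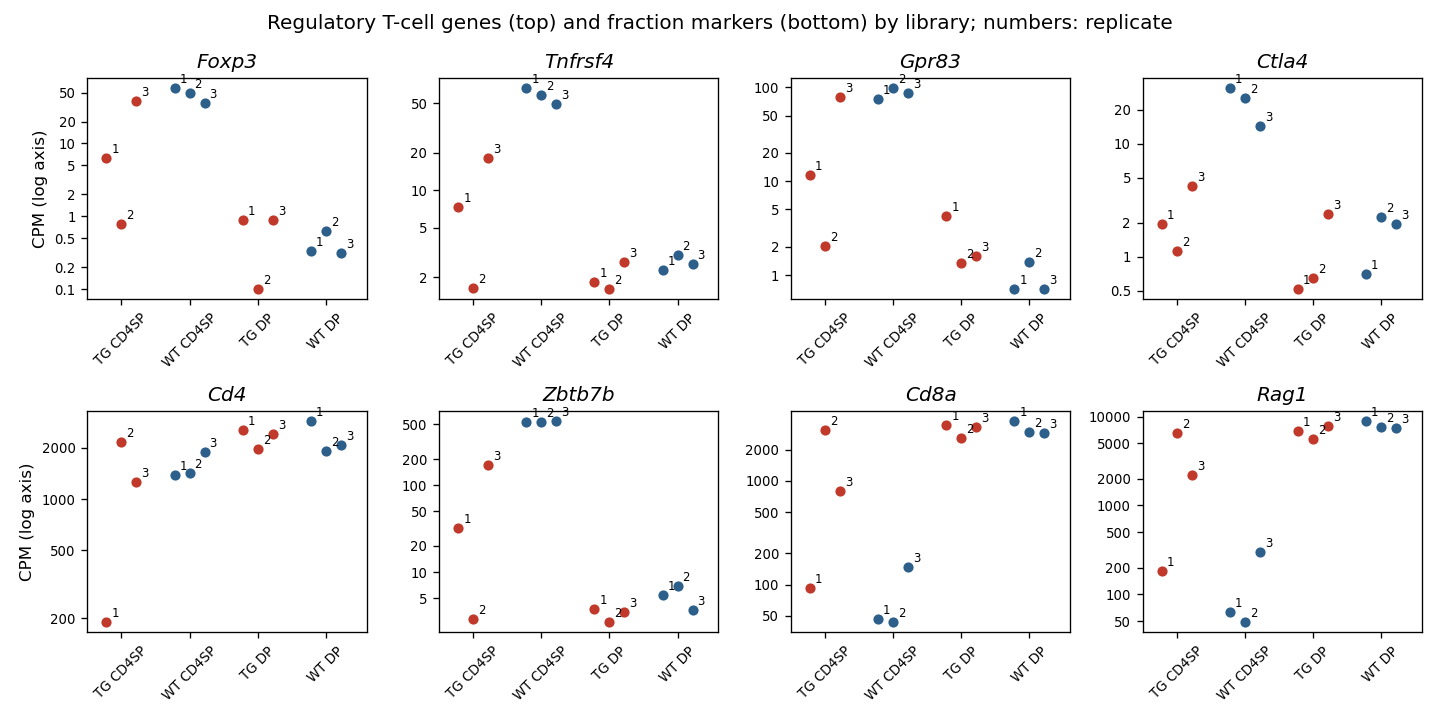
CPM on a log axis (y) of 4 regulatory T-cell genes (top) and 4 fraction markers (bottom) in each CD4SP and DP library (x, TG left of WT in each stage; numbers are replicates). TG CD4SP replicate 2 lies with the DP libraries for Foxp3 (0.785 CPM), Zbtb7b (2.92 CPM), Cd8a (3093 CPM) and Rag1 (6487 CPM).

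The CD4SP count changed when single libraries were left out. TG replicates 1 and 2, which remain without replicate 3, held 32.0 and 2.92 CPM of Zbtb7b. Replicate 3 held 172 CPM and the WT libraries 529 to 542 CPM, and the part of this in the calls was not tested. Without TG replicate 3 the same test called 8 of the 9 genes, Foxp3 among them at -3.71 (adjusted p = 0.0312), where 28.5% of all genes passed. Without TG replicate 1 it called Ctla4 alone of the 9 (-3.12, adjusted p = 0.036), where 21.6% of all genes passed. Without WT replicate 1 or 2 it called 0 of the 9, but then only 0.304% and 0.798% of all genes passed (38 and 100 genes). Without WT replicate 3 it called Ctla4 alone (-3.52, adjusted p = 0.0333), where 11.7% of all genes passed. Without TG replicate 2, which is the library nearest to DP cells, the same 4 genes passed as with all libraries, by -2.91 for Ctla4, -2.17 for Tnfrsf4, -2.54 for Tnfrsf9 and -2.0 for Lrrc32, where 34.6% of all genes passed. TG replicate 1, with its low Zbtb7b, stays in that fit. The column names of TG CD4SP replicates 1 and 3 end in N, which the labels do not explain. Those of TG replicate 2 and of the WT libraries do not, so this last fit cannot tell the genotype from the suffix.

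**Figure D4:**
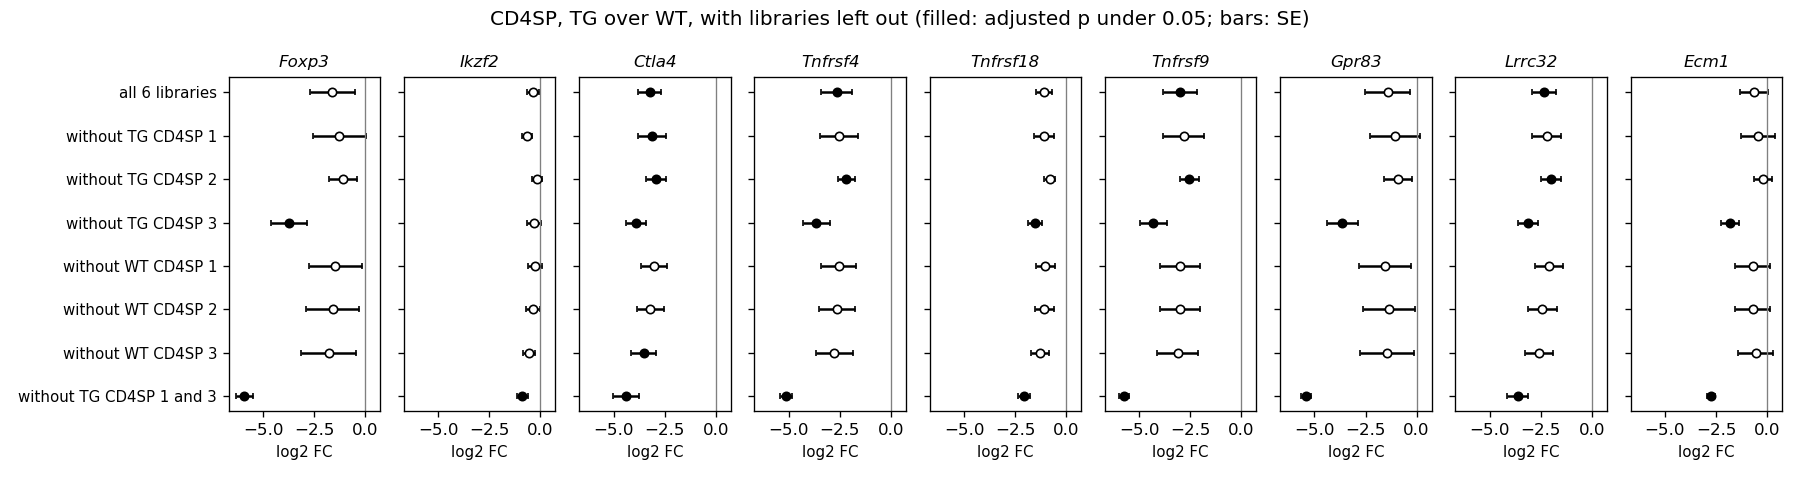
Log2 fold change of TG over WT CD4SP cells with SE (x) for each of the 9 genes (panels), with all 6 libraries and with libraries left out (rows); filled points passed the test. In the row without TG replicates 1 and 3 the TG arm is 1 library, assumed to vary like the WT libraries, and 42.9% of all genes passed; there the Ctla4 change is -4.39 and that of Foxp3 -5.91.

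Other genes of the same biology were read off in the same CD4SP fit, where 25.9% of all genes passed. Of 21 tested genes of a wider regulatory T-cell signature only Icos, an inducible costimulator, passed, at -2.28 (adjusted p = 0.0293), and the list's median was 0.21. Of 11 genes that respond to receptor strength and activation 6 fell, namely Cd69 (by 2.7 on the log2 scale), Cd5 (by 1.57), Nfkbid, Nr4a1, Egr2 and Egr1. Among 20 factors that act on the Foxp3 locus, 3 rose and 6 fell. Stat5a, which carries the interleukin-2 signal to that locus, had 565, 316 and 428 CPM in TG and 144, 147 and 163 CPM in WT (1.55 ± 0.24, adjusted p = 0.00994). Nr4a3, Tet2 and Bach2 were among those that fell, by 3.17, 2.90 and 3.48 on the log2 scale.

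Traf1, an adaptor that binds OX40 and 4-1BB among other receptors of the family, was low in TG CD4SP, TG CD8SP and TG DN3 libraries alike. In CD4SP it had 8.08, 2.92 and 15.4 CPM in TG, against 95.2, 100.4 and 72.3 CPM in WT. In CD8SP it had 4.0, 9.57 and 3.14 CPM in TG, against 47.4, 81.2 and 44.3 CPM in WT. In DN3 it had 0.651, 1.38 and 1.08 CPM in TG, against 17.0, 15.1 and 17.5 CPM in WT. No TG library reached a WT library at these stages, and the changes were -3.31 ± 0.58, -3.38 ± 0.47 and -3.99 ± 0.26 (adjusted p = 0.0125, 0.0163 and 1.65e-05). Traf1 was the 1 gene to pass of the 8 tested ligands, co-receptors and adaptors of the members in CD4SP, and of the 6 tested in CD8SP. Of all genes 25.9% and 4.45% passed there. In DN3, 1 of the 5 tested passed as higher and 2 as lower, where 45.7% of all genes passed. In total DN, 1 of the 8 tested passed as higher and 0 as lower, where 12.4% of all genes passed. In DP 0 of them passed, as did 0% of all genes.

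In CD8SP cells, 2 of the 9 genes passed, Tnfrsf18 and Tnfrsf9, both lower in TG, where 4.45% of all genes passed. Tnfrsf18 had 11.8, 14 and 10.5 CPM in TG CD8SP libraries, against 22.1, 26.2 and 22 CPM in WT (-0.95 ± 0.18, adjusted p = 0.0317). Tnfrsf9 had 10.8, 4.21 and 6.80 CPM in TG, against 31.3, 27.6 and 16.6 CPM in WT (-1.78 ± 0.38, adjusted p = 0.0455). In both genes every TG library was below every WT library. Each call was lost without some single library: 1 gene passed without TG replicate 1 (Tnfrsf9, -2.17, adjusted p = 0.0458), without TG replicate 2 (Tnfrsf18, -1.06, adjusted p = 0.0368), without TG replicate 3 (Tnfrsf18, -0.88, adjusted p = 0.0463) and without WT replicate 3 (Tnfrsf9, -2.0, adjusted p = 0.0486), and 0 passed without WT replicate 1 or 2. Of all genes 2.39%, 3.17%, 6.04% and 2.75% passed in the fits with 1 call, in that order, and 0.151% and 0.0755% without WT replicate 1 and 2.

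Foxp3 was low in CD8SP cells of both genotypes, with 0.990, 0.177 and 0.713 CPM in TG and 3.11, 5.17 and 1.45 CPM in WT. The libraries did not overlap, but the change of -2.35 ± 0.72 missed the threshold in the edgeR test (adjusted p = 0.127). Foxp3 passed with DESeq2 (-2.35, adjusted p = 0.0245), which called 10.7% of all genes. Ctla4 had 2.38, 1.95 and 4.13 CPM in TG and 5.41, 5.93 and 4.53 CPM in WT (-0.90 ± 0.38, adjusted p = 0.258). The other members gave -0.90 for Tnfrsf4, -0.31 for Ikzf2, -0.97 for Gpr83, 0.35 for Lrrc32 and 0.34 for Ecm1, none past the threshold in the edgeR test. Of 19 tested genes of the wider signature, Capg, Icos and Itgae fell and Nrp1 rose, where 4.45% of all genes passed. Replicate 3 of both genotypes held more Cd4 than the others, 1408 CPM in TG and 855 CPM in WT, and the part of this in the values was not tested.

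Whether the genotype difference itself differed between CD4SP and CD8SP cells was tested with an interaction term over 12 libraries. None of the 9 genes passed in that edgeR quasi-likelihood test, where 0.032% of all genes passed (4 of 12507, and 2067 at an unadjusted p under 0.05). The largest differences were -2.72 ± 0.99 for Lrrc32 (adjusted p = 0.21) and -2.36 ± 0.69 for Ctla4 (adjusted p = 0.135). Ctla4 passed with DESeq2 (-2.40, adjusted p = 0.0176), which called 5.9% of all genes, and without TG CD4SP replicate 3 (-3.06, adjusted p = 0.0182), where 4.81% of all genes passed.

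**Figure D5:**
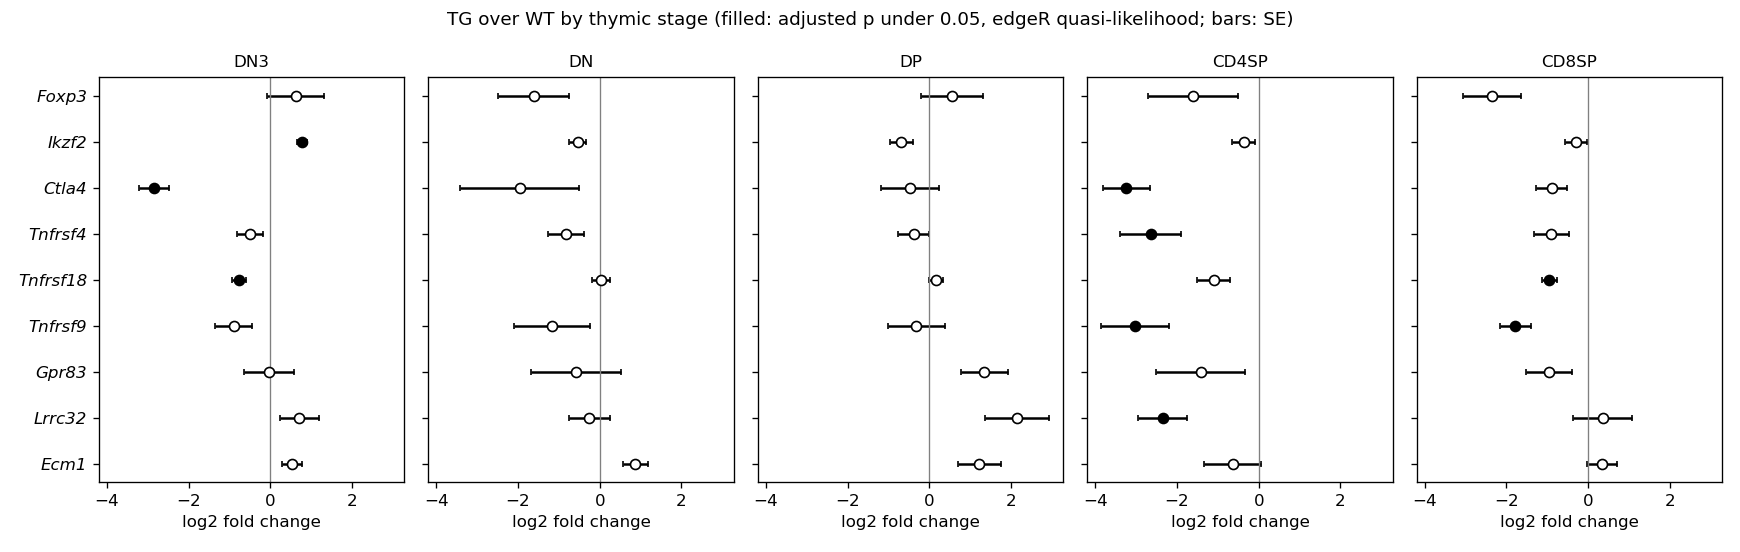
Log2 fold change of TG over WT with SE (x) for the 9 genes (y) at 5 thymic stages, 3 libraries per genotype; filled points passed the test. In CD4SP all 9 points lie left of 0, with 4 filled; in DN3 Ctla4 (-2.85) and Tnfrsf18 (-0.78) are filled on the left and Ikzf2 (0.77) on the right.

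In DN3 cells 3 of the 9 genes passed, a smaller share than the 45.7% of all genes that did. Ctla4 and Tnfrsf18 fell and Ikzf2 rose. Ctla4 had 11.7, 7.27 and 3.62 CPM in TG DN3 libraries, against 58.8, 54.9 and 49.7 CPM in WT, and the change was -2.85 ± 0.37 (adjusted p = 0.000841). WT DN3 was the group with the highest mean of Ctla4, at 54.5 ± 4.6 CPM (SD, n = 3), above TG splenic CD4 cells at 47.1 ± 20.3 CPM (SD, n = 3), whose range it overlapped. Foxp3 in the same WT DN3 libraries was 1.29, 7.74 and 7.39 CPM, and TG DN3 libraries overlapped these with 6.92, 14.4 and 3.91 CPM (0.62 ± 0.70, adjusted p = 0.493).

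Ikzf2 had 242, 185 and 209 CPM in TG DN3 libraries, against 120, 133 and 121 CPM in WT (0.77 ± 0.12, adjusted p = 0.00128). Tnfrsf18 had 7.16, 8.82 and 9.08 CPM in TG, against 13.3, 12.8 and 16.9 CPM in WT (-0.78 ± 0.17, adjusted p = 0.00643). Neither gene overlapped between the genotypes. The members that did not pass gave -0.50 for Tnfrsf4, -0.90 for Tnfrsf9, -0.03 for Gpr83, 0.71 for Lrrc32 and 0.54 for Ecm1. Leaving out any 1 of the 6 libraries kept all 3 calls, with Ctla4 between -3.32 and -2.52. Tnfrsf4 and Tnfrsf9 passed as well without TG replicate 2 (-0.88 and -1.44, adjusted p = 0.0304 and 0.0277), and Ecm1 without WT replicate 3 (0.80, adjusted p = 0.0372), where 39.7% and 31.1% of all genes passed. Mast-cell markers summed to between 715 and 1209 CPM in TG DN3 and between 71.3 and 124 CPM in WT DN3, with 3 of the 3 tested higher in TG. That list has 6 genes, of which 3 had 0 counts in each TG and each WT DN3 library. Myeloid and dendritic markers summed to between 5.0 and 7.0 CPM in TG DN3 and between 13.8 and 18.9 CPM in WT DN3, with 3 of the 4 tested lower in TG and 1 higher. The part of any such cells in the DN3 values was not tested. Of 16 tested genes of the wider signature 4 rose and 4 fell, with a median of -0.01, where 45.7% of all genes passed. Among them Lag3 and Capg fell by 4.91 and 1.90, and Tigit rose by 3.27.

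In total DN cells 0 of the 9 genes passed the edgeR test, where 12.4% of all genes passed; Ecm1 passed with DESeq2 (0.87, adjusted p = 0.0459), which called 21.1% of all genes. Ctla4 had 0.0872, 14 and 0.319 CPM in TG DN libraries, against 22.7, 18.6 and 14.2 CPM in WT. Tnfrsf9 had 1.13, 18.9 and 3.38 CPM in TG, against 14.4, 15 and 22.8 CPM in WT. In both genes replicate 2 stood at or near the WT range and the other TG libraries far below it. Without it 24.7% of all genes passed (3146, against 1547 with all 6 libraries), and 4 of the 9 did, Ctla4 at -6.53 (adjusted p = 0.000899), Gpr83 at -3.01 (adjusted p = 0.0385), Tnfrsf9 at -2.98 (adjusted p = 0.0099) and Ikzf2 at -0.73 (adjusted p = 0.0403). The column names of TG DN replicates 1 and 3 end in N, which the labels do not explain. Those of replicate 2 and of the WT DN libraries do not. The fit without replicate 2 thus cannot tell the genotype from this suffix. A term for the suffix does not help, since it leaves TG DN replicate 2 alone to set the genotype change against WT.

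Replicate 2 of TG DN also held more marker RNA of B cells (252 CPM summed, against 40.5 and 166 CPM in replicates 1 and 3) and of megakaryocytes, platelets and red cells (2623 CPM, against 47.1 and 412 CPM). WT DN libraries held 164 to 334 CPM of these B-cell markers, and 1684, 1483 and 21670 CPM of the megakaryocyte, platelet and red-cell markers. Mast-cell markers summed to 2067, 421.5 and 1145 CPM in TG DN libraries 1 to 3 and to 77.9, 73.8 and 71.4 CPM in WT. Of these 6 markers, 3 had 0 counts in each of TG DN replicates 1 and 3, and 2 in each WT DN library. The part of any such cells in the DN levels of the 9 genes was not tested. Ecm1 was higher in every TG DN library, with 14.6, 19.3 and 24.2 CPM, against 7.56, 9.12 and 14.3 CPM in WT (0.87 ± 0.30, adjusted p = 0.0903). With all 6 libraries the estimates were -1.62 for Foxp3, -1.96 for Ctla4, -0.83 for Tnfrsf4, 0.03 for Tnfrsf18, -1.18 for Tnfrsf9, -0.58 for Gpr83 and -0.26 for Lrrc32.

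Ikzf2 went opposite ways in DN3 and total DN cells. In total DN it had 187, 220 and 124 CPM in TG, against 221, 254 and 271 CPM in WT, so that every TG library was below every WT library (-0.54 ± 0.21, adjusted p = 0.129). A test of the difference between the stages, added after these values were seen, gave 1.29 ± 0.26 (adjusted p = 0.0239), where 6.02% of all genes passed. That call was lost without TG DN3 replicate 1 (1.13, adjusted p = 0.0566), WT DN3 replicate 1 (1.29, 0.0786) or 3 (1.22, 0.0894), or WT DN replicate 2 (1.27, 0.0644) or 3 (1.26, 0.0533).

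In DP cells 0 of 9 passed the edgeR test, and 0% of all 11649 genes did (2450 at an unadjusted p under 0.05, and 605 by DESeq2). Lrrc32 had 4.39, 1.05 and 0.574 CPM in the libraries labelled TG DP, against 0.520, 0.437 and 0.395 CPM in WT DP, without overlap (2.15 ± 0.79, adjusted p = 0.215). Ecm1 had 13.1, 22.7 and 4.30 CPM in the libraries labelled TG, against 5.53, 5.96 and 5.49 CPM in WT. The library labelled TG DP replicate 3, the one without transgene-level Lmo2, was the lowest of the 6 for Ecm1 and the lowest of its group for Lrrc32. Without it Ecm1 passed (1.65, adjusted p = 0.032) as 1 of the 9 genes, where 7.6% of all genes passed, and Lrrc32 gave 2.59 (adjusted p = 0.0577). The other members gave 0.57 for Foxp3, -0.68 for Ikzf2, -0.46 for Ctla4, -0.38 for Tnfrsf4, 0.17 for Tnfrsf18, -0.32 for Tnfrsf9 and 1.35 for Gpr83 with all 6 libraries. Without that library they gave 0.24 for Foxp3, -0.81 for Ikzf2, -1.51 for Ctla4, -0.63 for Tnfrsf4, 0.22 for Tnfrsf18, -0.14 for Tnfrsf9 and 1.57 for Gpr83, none past the threshold. The difference of the Lrrc32 change between DP and CD4SP, added after the values were seen, was 4.53 ± 1.04 (adjusted p = 0.0411), where 2.89% of all genes passed, and it was 4.98 (adjusted p = 0.0432) without TG DP replicate 3. It did not pass without any 1 of 9 of the 12 libraries, with values from 3.22 without TG DP replicate 1 to 4.76 without WT CD4SP replicate 3 and adjusted p from 0.0521 to 0.124.

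In DN1 cells, WT had 1 library, whose spread was taken from a fit of all 40 libraries. There 0 of 9 genes passed the edgeR test, and 0% of all genes did (157 at an unadjusted p under 0.05, and 3 by DESeq2). Foxp3 was lower in every TG library than in the WT one, 32.6, 52.4 and 33.6 CPM against 70.6 CPM (-0.84 ± 1.03, adjusted p = 1). Ctla4 was 6.89, 18.7 and 19.4 CPM in TG and 34.1 CPM in WT (-1.19 ± 1.07). Gpr83 was the 1 gene with a positive estimate, at 25.5, 41.7 and 25.1 CPM in TG and 20.9 CPM in WT (0.56 ± 1.22). The other 6 estimates lay between -0.74 for Tnfrsf4 and -0.05 for Ecm1.

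The spleen libraries were all TG, so the spleen comparisons are of fractions and tissues within that genotype. In splenic CD4 over splenic CD8 cells 5 of the 9 genes passed, all higher in CD4 cells, where 0.491% of all genes passed. All 9 genes were higher in every CD4 library than in any CD8 library, as were 12.7% of all genes tested. Foxp3 had 271.6, 305.6 and 212.4 CPM in splenic CD4 and 5.01, 1.92 and 3.58 CPM in splenic CD8 cells (6.25 ± 0.42, adjusted p = 0.0062). Tnfrsf4, Gpr83 and Ecm1 changed by 4.33 ± 0.30, 3.94 ± 0.26 and 3.08 ± 0.18 (adjusted p = 0.0062 each), and Ctla4 by 3.92 ± 0.40 (adjusted p = 0.0322). Ikzf2, Tnfrsf18 and Tnfrsf9 gave 2.37, 1.37 and 2.09 and did not pass (adjusted p = 0.11, 0.188 and 0.0791).

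Lrrc32 had the second largest estimate in this comparison and missed the threshold (4.97 ± 0.73, adjusted p = 0.0547). It had 20.5, 26.1 and 53.8 CPM in splenic CD4 libraries, against 2.04, 0.383 and 0.791 CPM in splenic CD8 libraries. Platelets carry GARP as well, and megakaryocyte, platelet and red-cell markers summed to 2359, 1094 and 58300 CPM in the splenic CD4 libraries and to 198, 728 and 459 CPM in the splenic CD8 libraries. Of the platelet genes alone, Ppbp had 19.6, 11.3 and 33.7 CPM in the CD4 libraries and 1.0, 6.71 and 4.53 CPM in the CD8 libraries. CD4 replicate 3 was thus the highest both for Lrrc32 and for these markers. The other libraries went the other way: CD4 replicate 1 held more of the markers than replicate 2 but less Lrrc32. Of the CD8 libraries, replicate 1 held the least of the markers and the most Lrrc32. The part of platelets in the Lrrc32 level was not tested. The number of genes called was 8 without CD8 replicate 1, which held 4648 CPM of B-cell markers, 6 without CD4 replicate 3, 4 without CD4 replicate 2, 1 without CD8 replicate 2 (Foxp3, 5.97, adjusted p = 0.0442), and 0 without CD4 replicate 1 or CD8 replicate 3. Over all genes the same fits called 1289 genes (10.2%) without CD8 replicate 1, 25 without CD4 replicate 3, 5 without CD4 replicate 2, 1 without CD8 replicate 2, and 0 without CD4 replicate 1 or CD8 replicate 3.

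In splenic CD4 over TG CD4SP cells 4 of the 9 genes passed, all higher in spleen, where 24.5% of all genes passed. Ctla4 had 58.6, 59.0 and 23.7 CPM in spleen, against 1.96, 1.12 and 4.27 CPM in TG CD4SP (4.23 ± 0.64, adjusted p = 0.0109). Lrrc32, Tnfrsf4 and Tnfrsf18 changed by 3.76 ± 0.68, 3.08 ± 0.80 and 1.48 ± 0.40 (adjusted p = 0.0148, 0.0355 and 0.0395). Foxp3 did not overlap and lay just outside the threshold in the edgeR test (4.08 ± 1.23, adjusted p = 0.0528). With DESeq2 it passed (4.10, adjusted p = 0.000174), where 35.8% of all genes did. Gpr83 overlapped, with 36.0, 26.7 and 31.2 CPM in spleen and 11.6, 2.02 and 79.4 CPM in TG CD4SP (-0.03 ± 1.09, adjusted p = 0.987). Tnfrsf9, Ikzf2 and Ecm1 gave 2.72, -0.20 and 0.44 (adjusted p = 0.0636, 0.804 and 0.673). The spread of the TG CD4SP libraries enters this comparison as it does the genotype one, and both share those 3 libraries. Marker RNA of other cells was higher in spleen: 7 of 8 B-cell markers, 9 of 10 megakaryocyte, platelet and red-cell markers and 6 of 10 myeloid and dendritic markers passed, all upward. Summed B-cell markers were 648 to 2310 CPM in splenic CD4 and 23.0 to 75.5 CPM in TG CD4SP libraries, and summed myeloid and dendritic markers 990 to 3798 CPM in splenic CD4 and 40.6 to 273 CPM in TG CD4SP. Their part in the levels of the 9 genes was not tested.

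The count of 4 fell to 2 (Ctla4 and Lrrc32) without any 1 of the splenic CD4 libraries and to 1 without TG CD4SP replicate 1 (Ctla4, 4.10, adjusted p = 0.0361). It was 6, with Foxp3 and Tnfrsf9 in addition, without TG CD4SP replicate 2 (Foxp3 3.51, adjusted p = 0.0307) or replicate 3 (Foxp3 6.16, adjusted p = 0.0155). Of all genes 3.59%, 5.06% and 10% passed without splenic CD4 replicate 1, 2 and 3, and 16.3%, 19.8% and 25% without TG CD4SP replicate 1, 2 and 3. With all 6 libraries, 5 of 23 genes of the wider signature rose and 0 fell, where 24.5% of all genes passed. Among those that rose were Lag3 (3.57), Batf (2.57), Tigit (4.10) and Ebi3 (3.42). Tigit had 32.7 to 115 CPM in splenic CD4 libraries, against 0.934 to 9.69 CPM in TG CD4SP libraries.

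In splenic CD8 over TG CD8SP cells 5 of the 9 genes passed, 2 higher and 3 lower in spleen, where 37.3% of all genes passed. Ikzf2 had 20.5, 14.8 and 15.8 CPM in splenic CD8 libraries, against 192, 99.2 and 93.5 CPM in TG CD8SP libraries (-2.97 ± 0.33, adjusted p = 0.00164). Gpr83 and Ecm1 fell by 2.09 ± 0.66 and 1.57 ± 0.42 (adjusted p = 0.0472 and 0.0282). Foxp3 was higher in spleen at a low level, 5.01, 1.92 and 3.58 CPM against 0.990, 0.177 and 0.713 CPM in TG CD8SP (2.41 ± 0.74, adjusted p = 0.0425), and Tnfrsf18 changed by 1.26 ± 0.40 (adjusted p = 0.0477). Ctla4, Tnfrsf4, Tnfrsf9 and Lrrc32 gave 0.10, 1.24, 0.52 and -0.00 and did not pass. Splenic CD8 replicate 1, the highest for Foxp3, also held the most Cd4, 54.9 CPM against 3.45 and 4.22 CPM in replicates 2 and 3. All 8 B-cell markers, 7 of 10 myeloid and dendritic markers and 6 of 8 tested NK, innate lymphoid and gamma-delta markers passed as higher in spleen, and 1 of the last passed as lower. Summed B-cell markers were 670 to 4648 CPM in splenic CD8 and 12.1 to 30.2 CPM in TG CD8SP libraries, and summed NK, innate lymphoid and gamma-delta markers 189 to 650 CPM in splenic CD8 and 29.9 to 114.5 CPM in TG CD8SP. Their part in the levels of the 9 genes was not tested.

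The Ikzf2 call held without any 1 of the 6 libraries, with values from -3.14 to -2.58. Foxp3 passed in none of those 6 fits. Tnfrsf18 passed without splenic CD8 replicate 1 (1.60, adjusted p = 0.00223), Gpr83 without TG CD8SP replicate 2 (-2.39, adjusted p = 0.0278), and Ecm1 without TG CD8SP replicate 1 (-1.81, adjusted p = 0.0371), TG CD8SP replicate 2 (-1.65, adjusted p just under the threshold) or splenic CD8 replicate 1 (-1.70, adjusted p = 0.0352). Each of these 3 genes missed the threshold in the other fits with 1 library left out, and over the 6 fits 21.1% to 43.4% of all genes passed.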

How the data were processed

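RNA of 40 libraries in 14 groups was analysed, each group from the labels' genotype and cell type. The deposited values are read counts per gene, whole numbers for 19521 genes, beside the authors' FPKM of the same libraries. Bowtie2, HISAT, MACS2 and DESeq2, and the builds mm9 and mm10, are named in the submitters' processing notes, without a step for each; the sources used here do not give the counting tool, its strand setting or versions. FPKM was used only to set genes against each other, since counts grow with gene length. The table has 4 further columns (2 of counts) of samples not analysed here, and 12 of the 40 column names end in N, which the labels do not explain. Peak lists of 5 ChIP libraries were not used, because their build differs from that of the annotation at hand, and an input library was not analysed here.

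Counts were tested in edgeR 4.0.16 (R 4.3.3): filterByExpr (minimum count 10, minimum total 15), TMM scaling, a robust quasi-likelihood test, two-sided, Benjamini-Hochberg adjustment over all genes tested, threshold 0.05. Each comparison used the libraries of its groups; DN1 used all 40, and 3 interaction terms used 12 libraries each. CPM use TMM library sizes over all 40 libraries. Fold changes carry a prior count of 0.125. With 3 against 3 libraries an exact permutation test cannot give a p under 0.1, so none was run. The count test was checked on simulated counts. Alternatives were DESeq2 1.42.0 (test and size factors), no filter, 1 fit of all libraries, a replicate block, a term for names ending in N, and leaving libraries out. TG and WT groups share replicate numbers, but nothing in the labels ties equal numbers to a mouse or day.

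All 9 genes enter every comparison. From other lists up to 4 genes with the smallest adjusted p were named; further ones (Egr1, Egr2, Penk's levels, Ppbp, Zbtb7b, Cd4, Cd8a and Rag1 among them) were chosen after their values were seen. The genes, the lists and the rules were chosen with earlier results of these data known.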

Additional observations from a re-analysis of the deposited data

Results flagged for a closer look

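The TG over WT change of Ikzf2 differed between DN3 and total DN cells. Every TG library was higher in DN3 and every one lower in total DN, and the difference was 1.292 on the log2 scale (SE 0.26, adjusted p = 0.0239 by edgeR's quasi-likelihood test, 0.000141 by DESeq2). Without single libraries the adjusted p ranged from 0.00387 to 0.0894. The change of Lrrc32 differed between DP and CD4SP cells, being higher in every library labelled TG in DP and lower in every one in CD4SP. The difference was 4.534 (SE 1.04, adjusted p = 0.0411, 0.000632 by DESeq2), with adjusted p from 0.0131 to 0.124 without single libraries, and with at most 4.39 CPM in any DP library. Both pairs of stages were picked for their opposite directions after the values were seen.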

How the results depend on the processing

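Both comparisons of WT CD4SP cells kept their count of 8 genes under every alternative run. Elsewhere the number of the 9 genes past the threshold changed as follows, where small changes of the count are left out. With DESeq2 it was 1 in DN, 1 in the CD4SP minus CD8SP interaction and 9 in splenic CD4 over CD8, where DESeq2 called 2633, 694 and 842 of all genes. In 1 fit of all libraries it was 1 in DN3, 1 in CD8SP and 8 in splenic CD4 over CD8, with 2644, 655 and 1164 of all genes called, and with no filter on low counts 3 in splenic CD8 over TG CD8SP, with 4346 of all genes called. In CD4SP only the names of TG replicates 1 and 3 end in N. A term for the suffix thus leaves TG replicate 2 alone to set the genotype change, and its count is not given. In CD8SP, where both genotypes have such names, that term gave a count of 1, beside 469 of all genes. Without TG CD4SP replicates 1 and 3 together it was 9 in CD4SP, 5 in the interaction and 8 in splenic CD4 over TG CD4SP; this leaves TG CD4SP with 1 library, assumed to vary like the other groups, and 5367, 863 and 3972 of all genes were called. Not in these counts, Foxp3 passed with DESeq2 in CD8SP (-2.35, adjusted p = 0.0245) and in splenic CD4 over TG CD4SP (4.10, adjusted p = 0.000174). DESeq2 called 1248 and 4480 of all genes there. The cause of these changes was not tested.

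With the replicate number as a block the count was 5 in DN3, 1 in DN, 1 in CD4SP, 2 in splenic CD4 over TG CD4SP, 2 in splenic CD8 over TG CD8SP and 0 in splenic CD4 over CD8, beside 5176, 1494, 1362, 2009, 3242 and 0 of all genes. In no comparison did every same-numbered pair correlate above 0.1 (-0.0337 to 0.0434 in CD4SP). Single pairs went both ways: 0.587 for replicate 3 of TG and WT CD8SP, 0.422 for replicate 2 of WT CD4SP and CD8SP, and -0.427 for replicate 3 of WT CD4SP and DP. With such a spread these values cannot decide whether equal numbers share a mouse or day.

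Leaving out 1 library at a time gave 3 to 5 genes in DN3, 0 to 4 in DN, 0 to 1 in DP, 0 to 8 in CD4SP, 0 to 1 in CD8SP, 0 to 1 in the interaction, 1 to 6 in splenic CD4 over TG CD4SP, 1 to 3 in splenic CD8 over TG CD8SP and 0 to 8 in splenic CD4 over CD8.

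The direction turned in 18 gene results, 0 of which had passed the test. With the N term, which leaves TG DN replicate 2 alone to set the genotype change, DN gave -0.34 for Tnfrsf18, 0.093 for Tnfrsf9 and 0.79 for Gpr83. Without TG CD4SP replicates 1 and 3 the interaction of Foxp3 was -3.52, and splenic CD4 over TG CD4SP gave 0.33 for Ikzf2 and 3.94 for Gpr83, which was 0.019 in 1 fit of all libraries and 1.34 with the block. Lrrc32 in splenic CD8 over TG CD8SP was 0.090 with DESeq2 size factors, 0.084 with DESeq2, 0.084 in 1 fit of all libraries and 0.070 with the block.

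Without single libraries Gpr83 ranged from -0.91 to 0.32 in DN3, -3.01 to 0.13 in DN, -2.74 to 0.35 in the interaction and -0.59 to 2.15 in splenic CD4 over TG CD4SP. Ikzf2 ranged from -0.35 to 0.30 in the interaction, -0.025 to 0.36 in WT CD4SP over DP and -0.50 to 0.19 in splenic CD4 over TG CD4SP. Ecm1 ranged from -0.22 to 0.58 in CD8SP, -0.24 to 0.085 in DN1 and -0.032 to 1.60 in splenic CD4 over TG CD4SP. Tnfrsf18 ranged from -0.053 to 0.19 in DN and -0.64 to 0.13 in the interaction, Tnfrsf9 from -1.30 to 0.076 in DP, and Foxp3 from -1.43 to 1.27 in the interaction. Lrrc32 ranged from -0.23 to 0.82 in CD8SP and -0.87 to 0.57 in splenic CD8 over TG CD8SP, and Ctla4 from -0.033 to 0.49 there. Levels from raw totals or FPKM turned the ratio of no gene that had passed the test. Tnfrsf18 in total DN, which had not passed, did turn. Its means were 11.9 CPM in TG and 11.2 CPM in WT, but 12.1 and 12.7 CPM over raw totals. In FPKM they were 13.6 and 14.1. The alternatives for peaks were not run.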
